A study of Mus musculus with 9 samples.

Results

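Cholesterol and fatty acid synthesis was followed through 28 named mouse genes, matched by symbol in a table of 24012 genes. A symbol match was found for 26 of them. Msmo1 was matched by its gene ID (ENSMUSG00000031604), because the table lists it under the older symbol Sc4mol, and Hmgcs1, the synthase at the head of the mevalonate pathway, is not analysed here. The 27 genes measured are 16 enzymes of the sterol branch, 4 genes that control both branches, and 7 genes of the fatty acid branch, among them Fasn (fatty acid synthase), the marker of the set. The members were named for their function, with earlier results of these data known.

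The cells were pancreatic ductal adenocarcinoma (PDAC) cells recovered from mouse lungs after tail vein injection and sequenced as bulk RNA. All 3 groups, of 3 libraries each, carry the same labelled genotype, SIRT6F/F/p48-Cre/p53F/+KrasL/+, with p48-Cre driving recombination in the pancreas, and all are labelled as expressing GFP and a Gstt1-mCherry reporter. The mCherryLow and mCherryHigh groups were sorted on GFP and on the reporter level at 6 weeks, and the group labelled DTC was sorted on GFP at 5 days. No group without the Sirt6 and p53 alleles was compared, and the tumours grew from injected cells, not in the pancreas. Whether each library of a group is a different mouse is not in the labels, so p-values measure only the spread between these libraries, which may be technical.

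Cells make cholesterol from acetyl-CoA through mevalonate, isoprenoids and squalene, and then convert lanosterol to cholesterol in the endoplasmic reticulum. Fatty acids are built from the same acetyl-CoA, which ATP citrate lyase (Acly) makes from citrate and acetyl-CoA synthetase (Acss2) makes from acetate. Both routes are under sterol regulatory element binding proteins (SREBPs): the escort protein Scap carries them from the endoplasmic reticulum to the Golgi when sterols are scarce, and Insig1 holds them back when sterols are plentiful. Srebf1 is chiefly tied to fatty acid genes and Srebf2 to sterol genes, and the SREBPs act on promoters together with NF-Y and Sp1. In the pancreas and its tumours both routes supply membranes to dividing cells.

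The promoters of the 5 genes whose values carry most of what follows are shown first, as the 250 bases before the RefSeq start of transcription on build GRCm38.p6, 5′ to 3′ on the strand of the gene. They are at chr11:120824548-120824797 (minus strand) for Fasn, chr11:100528001-100528250 (minus strand) for Acly, chr2:155517793-155518042 (plus strand) for Acss2, chr8:122443423-122443672 (minus strand) for Mvd and chr19:6067851-6068100 (minus strand) for Tm7sf2. Capitals mark CCAAT, the letters bound by NF-Y, and GGGCGG, a GC box bound by Sp1, each on either strand (ATTGG and CCGCCC on the other).
Fasn: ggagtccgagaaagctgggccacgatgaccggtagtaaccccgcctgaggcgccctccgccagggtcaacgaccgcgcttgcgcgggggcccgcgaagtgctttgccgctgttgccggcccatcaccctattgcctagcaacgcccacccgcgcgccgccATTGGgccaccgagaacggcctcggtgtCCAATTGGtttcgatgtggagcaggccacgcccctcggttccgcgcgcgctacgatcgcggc
Acly: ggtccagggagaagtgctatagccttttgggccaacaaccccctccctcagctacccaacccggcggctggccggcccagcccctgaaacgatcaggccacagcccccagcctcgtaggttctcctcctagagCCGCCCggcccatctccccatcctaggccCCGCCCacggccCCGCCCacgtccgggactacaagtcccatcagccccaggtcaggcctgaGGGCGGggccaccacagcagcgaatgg
Acss2: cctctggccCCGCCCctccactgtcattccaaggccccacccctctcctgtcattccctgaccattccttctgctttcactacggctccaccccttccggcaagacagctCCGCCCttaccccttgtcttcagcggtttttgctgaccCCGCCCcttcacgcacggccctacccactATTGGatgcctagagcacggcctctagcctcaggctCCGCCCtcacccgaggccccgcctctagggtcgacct
Mvd: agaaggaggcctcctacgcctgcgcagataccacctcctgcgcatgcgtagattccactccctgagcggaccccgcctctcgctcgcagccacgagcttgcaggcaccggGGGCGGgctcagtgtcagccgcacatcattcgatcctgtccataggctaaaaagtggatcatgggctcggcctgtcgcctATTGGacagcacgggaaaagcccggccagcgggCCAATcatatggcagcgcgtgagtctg
Tm7sf2: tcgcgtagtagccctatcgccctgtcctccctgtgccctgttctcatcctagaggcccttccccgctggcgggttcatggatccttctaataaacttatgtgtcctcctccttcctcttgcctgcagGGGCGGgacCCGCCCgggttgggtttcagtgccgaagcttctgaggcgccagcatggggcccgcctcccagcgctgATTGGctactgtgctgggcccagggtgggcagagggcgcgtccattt

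RefSeq promoters were matched for 23 of the 28 named genes and gave 29 promoters, Hmgcs1 among them. CCAAT was present in 20 of these 29 (69.0%), against 33.8% of all 32851 promoters of the same length. GGGCGG was present in 21 of 29 (72.4%), against 32.7% of all. The printed Fasn promoter holds 3 CCAAT and no GC box, that of Acly holds 4 GC boxes and no CCAAT, and those of Mvd, Tm7sf2 and Acss2 hold both. The sterol regulatory element in its form of 10 letters was found in 0 of 29 promoters (0.192% of all), and the 9 letters TCACNCCAC, which lie inside it, in 1 of 29, that of Hmgcs1 (1.05% of all). These are matches of letters in a short window, not sites shown to be used. Promoters of Fdps, Fdft1, Sqle, Scd1 and Scd2 are not used here.

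Depth ran from 643748 reads in mCherryHigh 1 to 11861241 in mCherryLow 6, and the DTC libraries held 923988 to 2052623. Markers set the libraries apart in 2 ways that touch the results. The summed level of 12 macrophage and monocyte markers was 434 to 2474 CPM (reads scaled to a common library total) in mCherryLow, 566 to 1560 in mCherryHigh and 3189 to 7734 in DTC, and that of 9 endothelial markers was 16.1 to 24.0, 33.1 to 55.9 and 218 to 464 CPM. Among the macrophage markers, Chi3l3 was at 967 to 2416 CPM in DTC and at 1.55 CPM or less elsewhere, and the complement genes C1qb and C1qc were at 0 in every mCherryHigh library and in mCherryLow 5 and 6. The 8 markers of tumour epithelium, the labelled cell type, were present in every group, at 1768 to 2574 CPM in mCherryLow, 2149 to 5973 in mCherryHigh and 5252 and 5899 in DTC 1 and DTC 2, but at only 408 in DTC 3, which stands apart and also had the highest macrophage sum. In such bulk samples fewer cells of a type and less RNA per cell cannot be told apart. The part of these other cells in the differences below was not tested, and values without DTC 3 are given beside the main results.

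Per kilobase of transcript, which allows levels to be set between genes, Acly was the most abundant member in mCherryLow, at 98.5 ± 12.9 CPM per kb (SD, n = 3), and in mCherryHigh, at 125 ± 58.3 (SD, n = 3). In DTC its rank was 7, at 25.2 ± 13.6 CPM per kb (SD, n = 3), and the methylsterol oxidase Msmo1 led at 50.1 ± 23.3 (SD, n = 3). Sqle, the squalene epoxidase that commits squalene to sterols, was the next in all 3 groups, at 62.5 ± 46.3, 88.4 ± 47.0 and 43.7 ± 28.7 CPM per kb (SD, n = 3 each). Its spread is as wide as its differences from Msmo1, so the order of these neighbours is not resolved. Fasn stood in the middle of the set, at 16.6 ± 4.50, 18.7 ± 1.78 and 10.1 ± 6.31 CPM per kb in mCherryLow, mCherryHigh and DTC (SD, n = 3 each). Idi1, the isopentenyl diphosphate isomerase, and Acaca, the acetyl-CoA carboxylase that makes malonyl-CoA, were among the 3 lowest members in every group, both under 3 CPM per kb in each group mean.

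**Figure D1:**
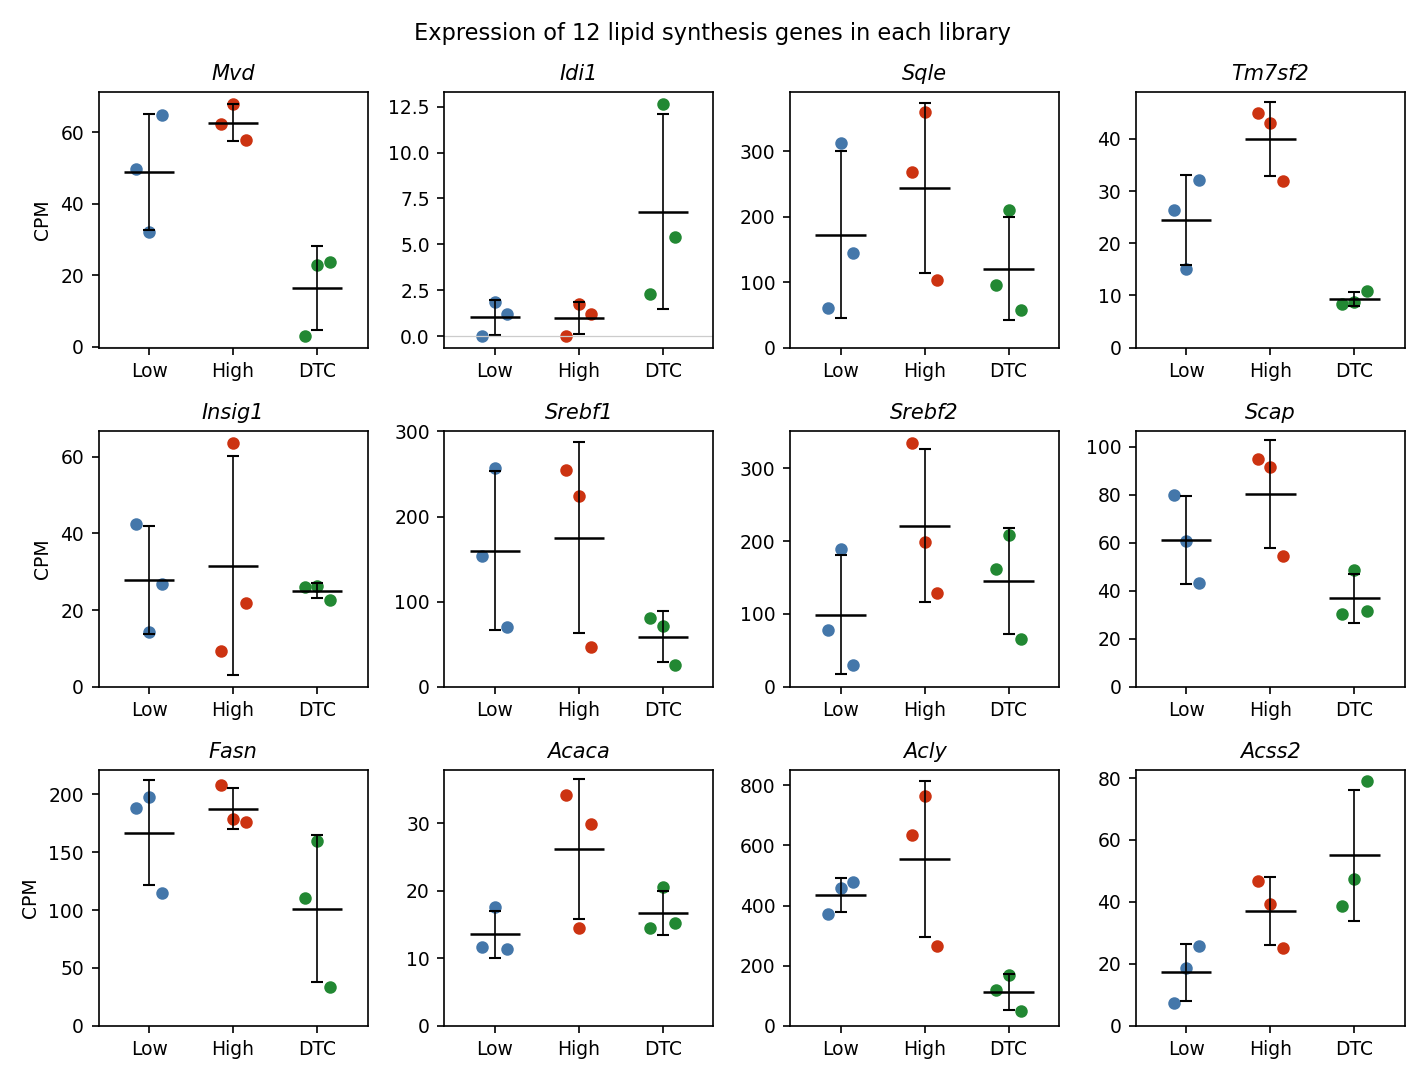
CPM per library for the named members on a linear axis, with a point for each library and a line with a bar for the mean and SD of its group. Acly is lower in all 3 DTC libraries than in any other, Acss2 has its lowest mean in mCherryLow, and Fasn overlaps between mCherryLow and the other groups.

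The comparison of mCherryHigh with mCherryLow asks whether cells with more of the reporter differ in lipid synthesis from cells with less. No member passed the test: 0 of 27 had a limma adjusted p under 0.05, where 0.00% of the 15437 genes tested did. At an unadjusted limma p under 0.05 there were 1448 genes (9.38%) and 0 members. By edgeR on whole reads 0 genes were called (0.00%), with 1221 (7.91%) and 0 members at an unadjusted p under 0.05. DESeq2 called 148 genes (0.959%) and 0 members. The groups overlapped for every member, while they did not for 15.9% of all genes tested. On simulated data from these libraries the test found 3 of 50 at a true change of 2-fold and 21 of 50 at 4-fold, so differences of such size can be missed.

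In the sterol branch 9 of 16 members were higher in mCherryHigh and 7 lower (7 and 9 by edgeR and by DESeq2), with a median difference of 0.09 on the log2(CPM + 1) scale, the scale of every difference given here, beside 0.09 for all genes. Tm7sf2, a sterol C14 reductase, was at 26.3, 15.0 and 32.0 CPM in mCherryLow 1, 5 and 6 and at 45.0, 43.0 and 31.9 CPM in mCherryHigh 1, 5 and 6, a difference of 0.73 (SE 0.40, limma adjusted p = 0.611). Its groups meet at mCherryLow 6 and mCherryHigh 6. Mvd, the decarboxylase that makes isopentenyl diphosphate, was at 49.7, 32.1 and 64.7 CPM in mCherryLow against 62.1, 68.0 and 57.8 CPM in mCherryHigh, and the 3 mCherryHigh values fall within or just above the mCherryLow range. The member furthest from 0 in this comparison was Nsdhl, a sterol dehydrogenase that helps remove the C4 methyl groups, at 38.5, 40.0 and 3.79 CPM in mCherryLow against 0, 11.2 and 2.25 CPM in mCherryHigh. Its difference was -2.54 (SE 1.15, limma adjusted p = 0.547), with mCherryLow 6 inside the mCherryHigh range. The 0 in mCherryHigh 1, the shallowest library, allows up to 4.66 CPM, the value of 3 reads there, for counting error only.

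Among the genes of SREBP control, Srebf2 had the widest gap. It was at 78.0, 190 and 29.6 CPM in mCherryLow against 336, 198 and 129 CPM in mCherryHigh, a difference of 1.41 (95% interval -0.11 to 2.94, limma adjusted p = 0.557). The groups overlap because mCherryLow 5 lies above mCherryHigh 6. Srebf1 was at 153, 257 and 69.9 CPM and at 255, 224 and 46.8 CPM, with nearly the same range in both groups and a difference of -0.01 (SE 0.71). Scap, the escort, was at 80.0, 60.8 and 43.3 CPM and 94.8, 91.7 and 54.4 CPM, and Insig1 at 42.4, 14.2 and 26.8 CPM and 9.32, 63.7 and 21.8 CPM. Insig1 has both its lowest and its highest value in mCherryHigh.

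All 7 members of the fatty acid branch had a positive difference with the deposited CPM, as did 56.4% of all genes tested, but 6 of 7 did with either other scaling and 5 of 7 by edgeR and by DESeq2, where Scd2 and Elovl6 were below 0. Their median was 0.28. Fasn was at 188, 198 and 115 CPM in mCherryLow against 208, 179 and 176 CPM in mCherryHigh. Only mCherryLow 6 stands below the rest, and the difference of 0.20 (95% interval -0.42 to 0.83, exact two-sided permutation p = 0.7, limma adjusted p = 0.875) turned to -0.04 without that library. Acss2, which makes acetyl-CoA from acetate, was at 7.31, 18.5 and 25.8 CPM in mCherryLow against 46.6, 39.2 and 24.95 CPM in mCherryHigh, a difference of 1.17 (SE 0.54, limma adjusted p = 0.553). The groups touch at mCherryLow 6 and mCherryHigh 6. Acaca was at 11.7, 17.6 and 11.3 CPM and 34.2, 14.5 and 29.9 CPM, with mCherryHigh 5 inside the mCherryLow range. Acly was at 371, 459 and 478 CPM and 634, 764 and 266 CPM, so that mCherryHigh held both the highest values and the lowest.

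The label descriptions also carry codes in 4 series whose meaning is not stated, and these bear on the pooled differences. mCherryLow 1 and mCherryHigh 1 share a series, mCherryLow 5, mCherryLow 6 and mCherryHigh 5 share another, and mCherryHigh 6 is alone in its own. Within series, Acss2 differed by 2.52 between the libraries numbered 1 and by 1.04 and 0.58 between mCherryHigh 5 and mCherryLow 5 and 6, positive each time. Acly differed by 0.77, 0.73 and 0.67 in the same pairs. Srebf2 differed by 2.09, 0.06 and 2.70, and Fasn by 0.15, -0.14 and 0.63, so neither the size nor, for Fasn, the sign was shared. Positive signs were not particular to Acss2 and Acly: Mvd, Sqle, Tm7sf2, Hsd17b7, Sc5d, Srebf2 and Scap were also positive in each pair. Between mCherryHigh 5 and mCherryLow 6 every member but Scd1 was positive. These pairs hold 1 library a side and have no test.

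DTC minus mCherryLow sets cells at 5 days against cells at 6 weeks, and here the time, the sort gate and a code series of their own cannot be told apart from the group. By limma 4 of 27 members were called: Acly and Mvd were lower in DTC, Acss2 and Idi1 higher. Of the 18701 genes tested 43.1% were called, 34.2% higher and 8.87% lower, a larger share than among the members, with no test of that gap. A gene entered when 3 of the 6 libraries reached 1 CPM, so it could enter through the 3 DTC libraries alone. Such genes are higher in DTC by selection and raise the shares of all genes that are higher, here and in DTC minus mCherryHigh. Their part in the gap was not tested. The groups did not overlap for 2 members higher in DTC (Idi1 and Acss2) and 3 lower (Mvd, Tm7sf2 and Acly), beside 39.0% and 14.2% of all genes. Of the 27 differences 13 were above 0, beside 62.6% of all genes. By edgeR 5 members were called, all lower (Mvd, Tm7sf2, Srebf1, Scap and Acly), where 24.4% of genes were higher and 16.5% lower. DESeq2 called 5, all lower, beside 27.5% of genes higher and 15.7% lower. Library scaling moves this split: the median difference of all genes was 0.59 with the deposited CPM, 0.28 after median-of-ratios scaling, and -0.14 after quantile normalization. Median-of-ratios scaling gave 0 members called higher and 6 lower by limma, beside 30.1% and 16.3% of genes. Quantile normalization gave 0 higher and 3 lower, beside 12.1% and 10.9%. Without DTC 3, limma called Fdps higher and Acly and Mvd lower, beside 30.9% and 7.02% of genes.

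Acly (ENSMUSG00000020917) was called lower in DTC by all 3 tools and in every setting run. It was at 371, 459 and 478 CPM in mCherryLow against 117, 169 and 48.7 CPM in DTC 1, 2 and 3. Every DTC library lies below every other library. The difference was -2.12 (SE 0.44, 95% interval -3.08 to -1.16, limma adjusted p = 0.0028), 4.35-fold lower on the CPM + 1 scale, and it was called in 17 of 17 settings, with values from -2.50 to -1.62. The weakest of these, -1.62 with an adjusted p of 0.00465 (limma), is the value without DTC 3.

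Acss2 (ENSMUSG00000027605), the other source of acetyl-CoA, went the opposite way. It was at 7.31, 18.5 and 25.8 CPM in mCherryLow against 38.8, 47.3 and 79.0 CPM in DTC, with no overlap, and the difference was 1.72 (SE 0.53, limma adjusted p = 0.0221). The call was lost without DTC 3, where the difference was 1.43 (limma adjusted p = 0.083), without mCherryLow 1, at 1.23 (limma adjusted p = 0.0866), with both other scalings (1.34 and 1.36), by DESeq2 (1.28) and by edgeR (1.11, adjusted p = 0.135). It held in 11 of 17 settings. DTC 3 is both the highest library for Acss2 and the one with the lowest summed level of tumour epithelial markers. Of the windows of 50 bases in its transcript 92.6% were unique, and antisense transcripts overlap 9.12% of its exons, so part of its reads are uncertain.

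Fasn was at 188, 198 and 115 CPM in mCherryLow against 110, 159 and 33.6 CPM in DTC. DTC 3 is far below the rest, and DTC 1 and DTC 2 lie within or just under the mCherryLow range. The difference was -0.94 (95% interval -2.08 to 0.20, limma adjusted p = 0.167, exact two-sided permutation p = 0.2), and it was -0.29 without DTC 3 (limma adjusted p = 0.55). Only median-of-ratios scaling gave a call, at -1.30 (limma adjusted p = 0.0489). Acaca, at 14.5, 20.5 and 15.2 CPM in DTC against 11.7, 17.6 and 11.3 CPM, differed by 0.30 (limma adjusted p = 0.659), and its sign turned with both scalings and both count tools. Just 47.4% of its windows were unique, the rest being shared with the copy Gm5182.

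Of the 7 fatty acid members 3 were higher and 4 lower in DTC with the deposited CPM, against 1 higher (Acss2) and 6 lower by edgeR and by DESeq2, and the same counts with median-of-ratios scaling. With the deposited CPM they had a median of -0.05 beside 0.59 for all genes. This median was 0.35 without DTC 3 and -0.46 without DTC 2. Scd1 and Scd2, the desaturases that make monounsaturated fatty acids, had means of 85.8 ± 70.2 and 115 ± 93.4 CPM in mCherryLow against 41.9 ± 10.9 and 123 ± 46.5 CPM in DTC (SD, n = 3 each). Their spread in mCherryLow exceeds the gap between the groups. Elovl6, the elongase of palmitate, was at 27.0 ± 3.92 and 29.1 ± 16.7 CPM (SD, n = 3 each).

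**Figure D2:**
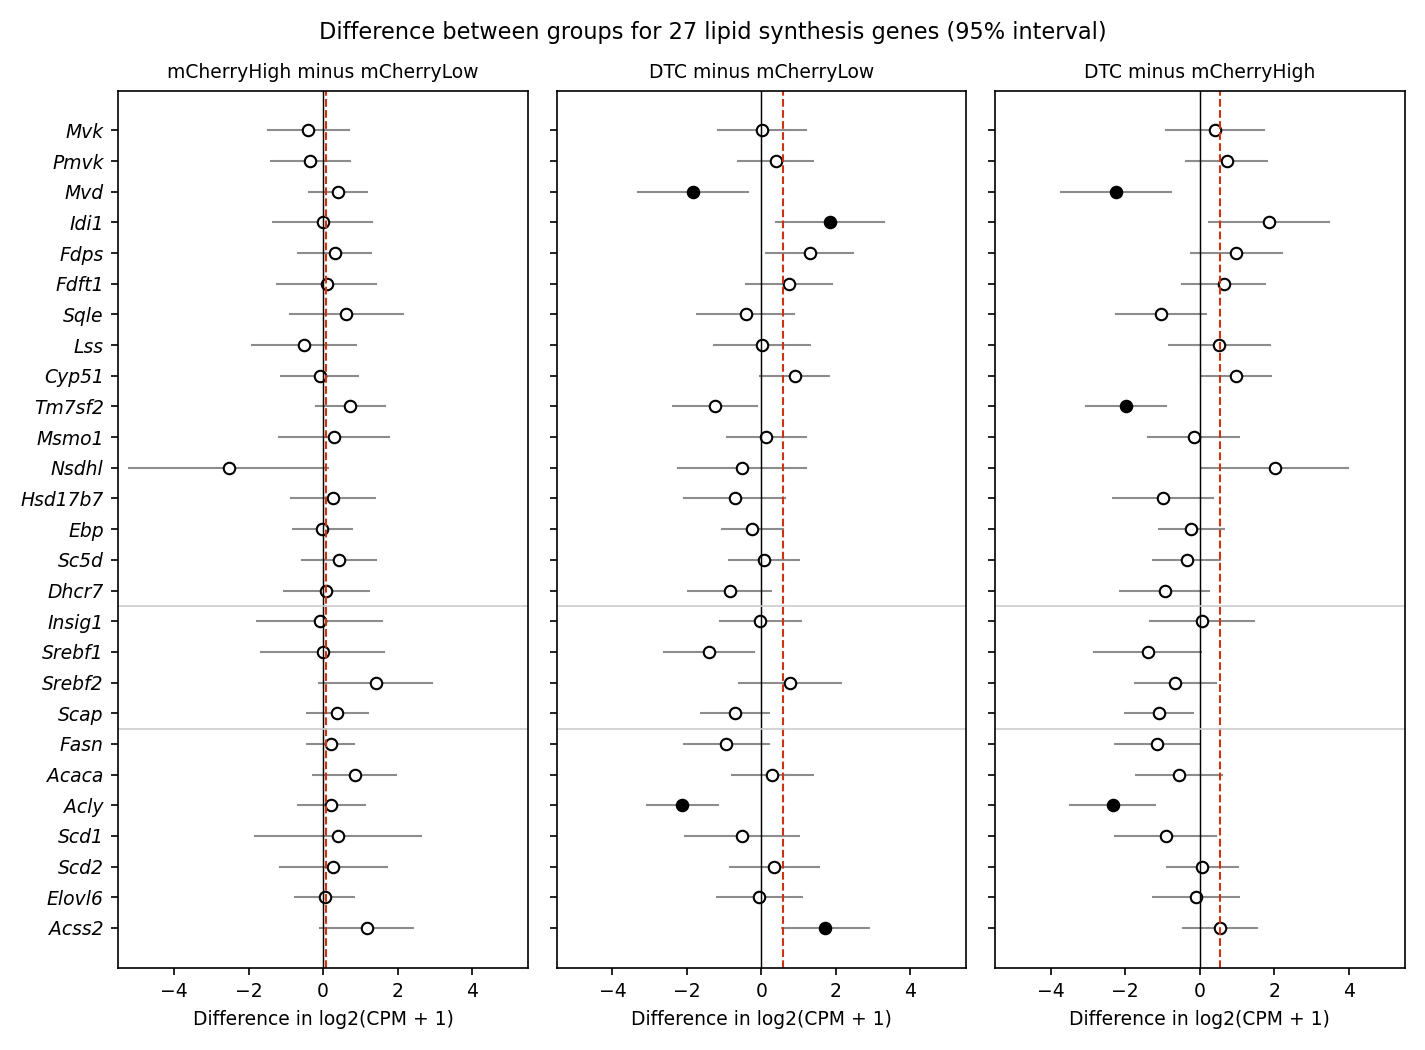
Difference in mean log2(CPM + 1) for each of the 27 members in the 3 comparisons, with bars for the 95% interval. Filled points have a limma adjusted p under 0.05, and the dashed line is the median of all genes tested, near 0.09 in mCherryHigh minus mCherryLow and above 0.5 in both comparisons with DTC.

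In the sterol branch of DTC minus mCherryLow, 9 members were higher and 7 lower, 1 called in each direction, with a median of 0.02. This split depends on the scaling: 4 were higher and 12 lower by edgeR, 5 and 11 by DESeq2 and with median-of-ratios scaling, and 6 and 10 with quantile normalization. Mvd (ENSMUSG00000006517) was at 49.7, 32.1 and 64.7 CPM in mCherryLow against 3.04, 22.9 and 23.8 CPM in DTC, again with no overlap. Its difference was -1.84 (SE 0.68, limma adjusted p = 0.0458). The DTC 1 value rests on 4 reads (95% exact Poisson interval 0.83 to 7.79 CPM, counting error only). Without DTC 1 the difference was -0.98 (limma adjusted p = 0.164), and the call was also lost without mCherryLow 1 or mCherryLow 6, at -1.80 and -1.61 (limma adjusted p = 0.0954 and 0.127). The call was also lost with no filter, with a filter at 5 CPM and after thinning to the shallowest library (limma adjusted p = 0.0632, 0.057 and 0.128). Mvd was called in 11 of 17 settings, among them edgeR at -2.09 (adjusted p = 0.0262).

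Idi1 (ENSMUSG00000058258) was at 0, 1.88 and 1.18 CPM in mCherryLow against 2.28, 12.7 and 5.41 CPM in DTC, so the DTC libraries are all above the others. These values rest on 0, 20 and 14 reads and on 3, 26 and 5 reads. The difference was 1.84 (SE 0.66, limma adjusted p = 0.0406), but it was called in only 5 of 16 settings and not by edgeR (adjusted p = 0.15). The call was lost without mCherryLow 1, mCherryLow 6, DTC 2 or DTC 3, at 1.40, 1.96, 1.31 and 1.86. With quantile normalization almost nothing of the difference was left, at 0.091 (limma adjusted p = 0.932), and with a pseudocount of 5 it was 0.89 (limma adjusted p = 0.0504). Only 69.5% of its transcript windows were unique, the rest being shared with Gm13502 and the antisense Gm48574.

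Tm7sf2 (ENSMUSG00000024799) was at 26.3, 15.0 and 32.0 CPM in mCherryLow against 8.37, 8.77 and 10.8 CPM in DTC. The 3 DTC values lie close together and below every mCherryLow value. The difference was -1.25 (SE 0.52) and missed the threshold by limma (adjusted p = 0.0701), while edgeR gave -1.92 (adjusted p = 0.0247). On the same strand Vps51 overlaps 12.1% of its exonic bases, which makes part of its count uncertain. Fdps, the farnesyl diphosphate synthase, was on the other side, at 20.0 ± 4.66 CPM in mCherryLow against 57.4 ± 31.7 CPM in DTC (SD, n = 3 each), a difference of 1.29 (limma adjusted p = 0.0708). Without DTC 3 it was called, at 1.88 (limma adjusted p = 0.0089), and in no other of the 17 settings. Here only 13.6% of the windows were unique, with Gm43738 and Gm3571 holding copies, so its level is uncertain.

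Cyp51, the lanosterol demethylase, had means of 55.7 ± 26.0 and 100.4 ± 31.5 CPM in mCherryLow and DTC (SD, n = 3 each; difference 0.89, limma adjusted p = 0.113). Dhcr7, which takes the last step in 1 route to cholesterol, had 55.5 ± 23.9 and 31.1 ± 14.6 CPM (SD, n = 3 each; -0.85, limma adjusted p = 0.195, and -0.42 without DTC 3). Sqle was at 60.5, 312 and 145 CPM in mCherryLow against 95.1, 209 and 57.4 CPM in DTC, with a wide range inside both groups. Its difference of -0.42 (SE 0.60) turned to 0.16 without mCherryLow 5 and was 0.013 without DTC 3. The other 8 sterol members were called in no comparison by limma or edgeR.

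At the kinase steps that follow mevalonate, Mvk had means of 10.6 ± 1.63, 7.89 ± 1.86 and 11.2 ± 4.39 CPM in mCherryLow, mCherryHigh and DTC, the order kept for the rest of the branch (SD, n = 3 each throughout), and Pmvk had 20.4 ± 6.12, 15.97 ± 5.05 and 26.3 ± 2.93 CPM. Fdft1, the squalene synthase, was at 25.4 ± 17.3, 25.6 ± 11.6 and 39.5 ± 13.9 CPM, and Lss, which closes squalene epoxide to lanosterol, at 30.1 ± 15.7, 20.4 ± 9.84 and 30.5 ± 15.2 CPM. For both, the largest SD inside a group is above the widest gap between group means. Ctsb overlaps 18.3% of the exonic bases of Fdft1 on the other strand, so its count is uncertain. In the ring and side steps after lanosterol, Msmo1 was at 99.2 ± 65.5, 127 ± 74.3 and 102 ± 47.6 CPM, Hsd17b7 at 36.0 ± 19.7, 41.5 ± 16.3 and 24.6 ± 21.7, Ebp, the sterol isomerase, at 79.5 ± 20.2, 79.3 ± 26.7 and 66.4 ± 12.5, and Sc5d, the sterol desaturase, at 56.8 ± 23.5, 74.5 ± 28.7 and 56.8 ± 11.7. None of these gaps exceeds the SD of its widest group.

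Of the controls, Srebf1 was at 153, 257 and 69.9 CPM in mCherryLow against 80.7, 71.1 and 24.9 CPM in DTC. DTC 1 and DTC 2 lie just above mCherryLow 6, so the groups overlap. The difference was -1.40 (SE 0.55, limma adjusted p = 0.058), and edgeR called it at -1.95 (adjusted p = 0.0167). Without DTC 3 it was -0.88 (limma adjusted p = 0.205). Srebf2 was at 78.0, 190 and 29.6 CPM and 162, 209 and 64.9 CPM, a difference of 0.76 (SE 0.62, limma adjusted p = 0.344), and 1.26 without DTC 3 (limma adjusted p = 0.164). Scap was at 80.0, 60.8 and 43.3 CPM and 30.4, 48.7 and 31.4 CPM, a difference of -0.71 (limma adjusted p = 0.189), which edgeR called at -1.24 (adjusted p = 0.0394). An antisense transcript overlaps 13.2% of the exonic bases of Scap. Insig1 was at 25.9, 26.3 and 22.7 CPM in DTC, the tightest of its groups, and differed by -0.02.

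DTC minus mCherryHigh shares its DTC libraries with that comparison, so its values stand beside it and do not add to it. By limma 3 of 27 members were called, all lower in DTC (Acly, Tm7sf2 and Mvd), where 30.2% of 19700 genes were called, 23.0% higher and 7.19% lower. The groups did not overlap for 3 members higher in DTC (Pmvk, Idi1 and Cyp51) and 5 lower (Mvd, Tm7sf2, Scap, Fasn and Acly), beside 31.4% and 13.2% of all genes. For Idi1 this is uncertain, because its 0 in mCherryHigh 1 allows up to 4.66 CPM and its DTC 1 value is 2.28 CPM, from 3 reads. By edgeR 5 were called, all lower, with Srebf1 and Scap added to the 3, beside 15.7% of genes higher and 11.2% lower. DESeq2 called 5, all lower, beside 21.3% and 10.7%. Of the differences 11 were above 0, beside 63.4% of all genes. Without DTC 3 the same 3 were called lower and Fdps was called higher (1.57, limma adjusted p = 0.0429, against 0.99 with it), where 5.10% of genes were lower and 14.8% higher.

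Acly at 117, 169 and 48.7 CPM in DTC lay below its 634, 764 and 266 CPM in mCherryHigh, a difference of -2.34 (SE 0.52, limma adjusted p = 0.0082) that was called in 17 of 17 settings. Tm7sf2 at 8.37, 8.77 and 10.8 CPM lay below its 45.0, 43.0 and 31.9 CPM, a difference of -1.98 (SE 0.49, limma adjusted p = 0.0122). Only leaving out mCherryHigh 5 took this call away (limma adjusted p = 0.0548). Mvd at 3.04, 22.9 and 23.8 CPM lay below its 62.1, 68.0 and 57.8 CPM, a difference of -2.25 (SE 0.67, limma adjusted p = 0.0274), and lost the call without DTC 1, mCherryHigh 5 or mCherryHigh 6, at -1.38, -2.19 and -2.30, and after thinning, at -2.21. It was called in 13 of 17 settings. Each of the 3 has DTC wholly below mCherryHigh.

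Fasn was lower in each DTC library (110, 159 and 33.6 CPM) than in any mCherryHigh library (208, 179 and 176 CPM). The difference of -1.14 (95% interval -2.27 to -0.02) had an exact two-sided permutation p of 0.1, the smallest that 3 against 3 allow, and a limma adjusted p of 0.113. The interval is for this gene alone, before adjustment. Without DTC 3 the difference was -0.49 (limma adjusted p = 0.274). Acss2 overlapped between DTC and mCherryHigh, at a difference of 0.54 (SE 0.45, limma adjusted p = 0.383), and of 0.25 without DTC 3. Branch medians were 0.13 for the sterol members, -0.87 for the controls and -0.55 for the fatty acid members, beside 0.55 for all genes.

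**Figure D3:**
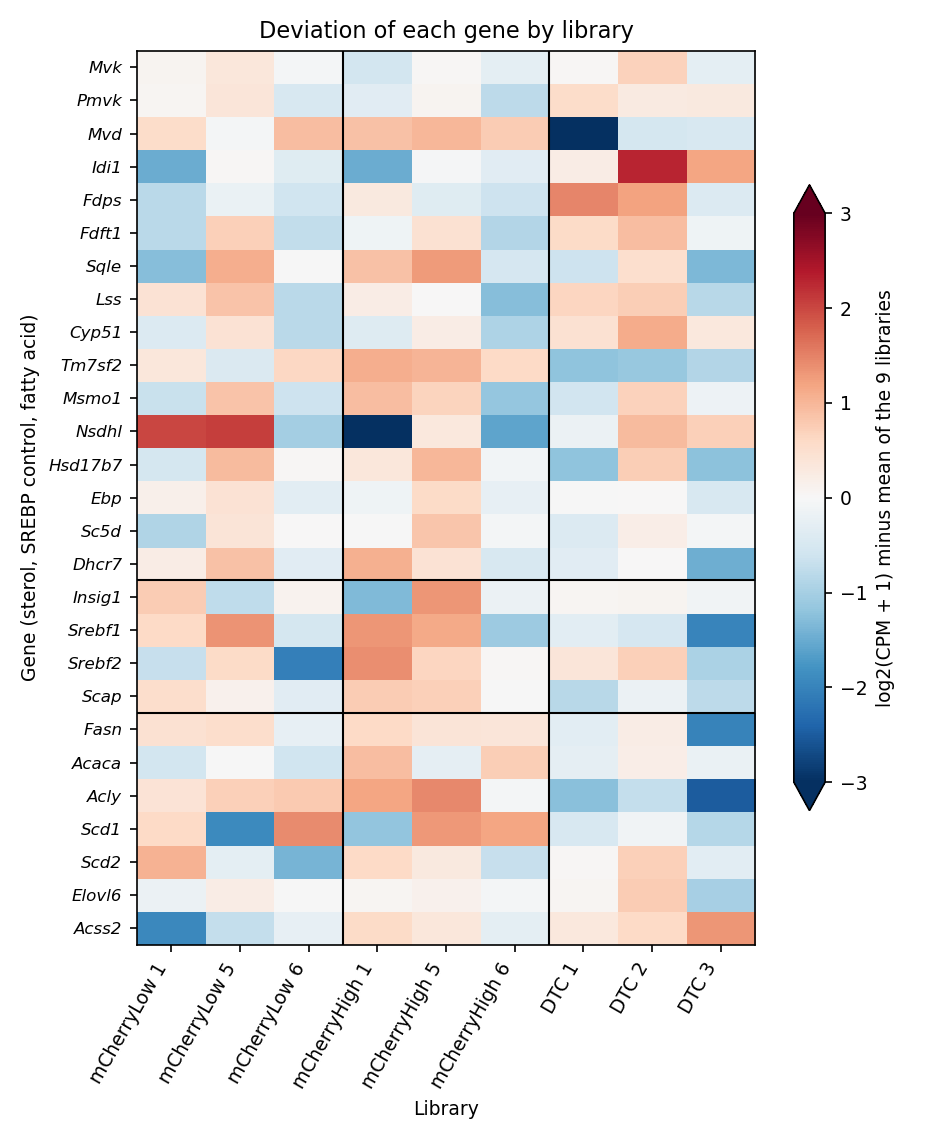
Each member's log2(CPM + 1) in each library as a deviation from its mean over all 9 libraries, with members in rows by branch and colours limited at the ends of the scale. Most sterol rows are highest in mCherryLow 5, mCherryHigh 5 and DTC 2 and lowest in mCherryHigh 6 within their groups.

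Within each group most sterol enzymes had their highest value in the same library. Of the 16, 14 had their highest mCherryLow value in mCherryLow 5, 11 their highest mCherryHigh value in mCherryHigh 5 and 12 their highest DTC value in DTC 2. Of all genes with a group mean of at least 5 CPM, these libraries were the highest for 34.1%, 28.5% and 32.8%. At the other end, 13 of 16 were lowest in mCherryHigh 6 and 9 in DTC 3, beside 29.2% and 35.4% of all genes. No low library was shared in mCherryLow, where 7 were lowest in mCherryLow 1, 7 in mCherryLow 6 and 2 in mCherryLow 5. Summed over the branch, the sterol members came to 562, 1130 and 598 CPM in mCherryLow 1, 5 and 6, to 972, 1163 and 510 CPM in mCherryHigh 1, 5 and 6, and to 633, 1002 and 505 CPM in DTC 1, 2 and 3. The ranges of the 3 groups overlap almost wholly. No test was made of this pattern.

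The fatty acid members followed it less in mCherryLow, where 3 of 7 were highest in mCherryLow 5 and 3 in mCherryLow 6, while 6 of 7 were highest in DTC 2 and 5 of 7 lowest in DTC 3. Their summed CPM came to 910, 825 and 852 in mCherryLow, to 1136, 1299 and 720 in mCherryHigh and to 459, 670 and 305 in DTC. All 3 DTC sums lie below the others, and Acly is the largest single term in all 6 mCherryLow and mCherryHigh libraries. The lower sums are not shared by every member: Acly, Fasn and Scd1 had lower means in DTC than in mCherryLow, and Acaca, Scd2, Elovl6 and Acss2 had higher ones. The control genes summed to 353, 522 and 170 CPM, 694, 578 and 252 CPM, and 299, 355 and 144 CPM.

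Ratios within a library take out its depth. The following were chosen after the values were seen and carry no test. Srebf1 to Srebf2 was 1.96, 1.36 and 2.36 in mCherryLow, 0.759, 1.13 and 0.363 in mCherryHigh and 0.498, 0.341 and 0.383 in DTC. Every mCherryLow ratio is above every other. Acly to Acss2 was 50.8, 24.8 and 18.5 in mCherryLow, 13.6, 19.5 and 10.7 in mCherryHigh and 3.02, 3.58 and 0.616 in DTC, where the DTC ratios lie below all others and mCherryLow and mCherryHigh overlap. Scd1 to Scd2 spread from 0.169 to 3.88 within mCherryLow and from 0.155 to 2.01 within mCherryHigh, but only from 0.304 to 0.378 in DTC.

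**Figure D4:**
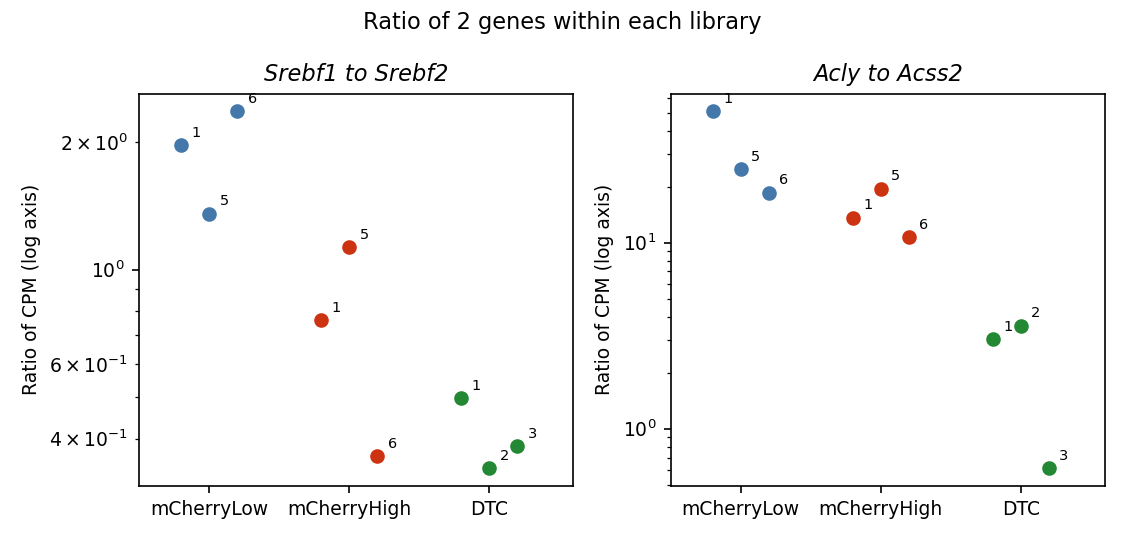
Ratios of CPM within each library for 2 pairs of members on log axes, a point for each library by group. The Srebf1 to Srebf2 ratio is above 1.3 in all mCherryLow libraries and under 0.5 in all DTC libraries, and the Acly to Acss2 ratio is under 4 in all DTC libraries.

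Other genes of lipid metabolism were counted by list in DTC minus mCherryLow, where limma called 34.2% of all genes higher and 8.87% lower. No gene of these lists was called in mCherryHigh minus mCherryLow. Among 12 other genes of SREBP control and sterol sensing, 1 was called higher and 4 lower. The lower ones include Insig2, the second Insig protein (-1.42, limma adjusted p = 0.0311) and Erlin2 (-2.38, 0.00354). Mylip, the ligase induced by sterol-activated LXR, was higher (3.08, 0.00237). But Mylip was at 1.95, 0 and 0 CPM in mCherryLow and was tested only because of its DTC values, 7.61, 15.1 and 11.9 CPM. Of 9 other mevalonate and isoprenoid genes 0 were higher and 2 lower, Acat1 (-1.41, 0.00753) and the dolichol synthase subunit Dhdds (-1.35, 0.0272). Insig2 and Dhdds lost their calls without DTC 3, at -0.99 and -1.03 (limma adjusted p = 0.0861 and 0.0651).

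Among 16 other genes of fatty acid synthesis, elongation and desaturation, 2 were called higher and 5 lower. The elongase Elovl5 was at 232 CPM in mCherryLow against 77.6 CPM in DTC (-1.67, limma adjusted p = 0.00577). Both the dehydratase Hacd3 (-2.26, 0.0035) and the reductase Tecr (-1.66, 0.0121), which complete each round of elongation, were lower. The carbohydrate-response factor Mlxipl was higher (2.96, 0.00266), but its mean in mCherryLow was only 0.56 CPM, against 11.6 CPM in DTC. It could not have been tested without its DTC values. Of 14 genes of fatty acid oxidation 2 were higher and 6 lower, with a median of -1.09. The lower ones include Cpt1a, which admits fatty acids to mitochondria (-2.65, limma adjusted p = 0.000519), and the long-chain dehydrogenases Acadvl (-1.69, 0.00512) and Acadl (-1.72, 0.00533).

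Some genes that take up, carry or export lipid were called higher, at a share close to that of all genes called higher (34.2%). Of 10 genes of cholesterol esterification, storage and export 4 were called higher and 4 lower: the exporter Abcg1 was at 9.51 CPM in mCherryLow against 198 CPM in DTC (4.07, limma adjusted p = 0.000387), the lipid carrier Apoe at 24.8 and 211 CPM (3.07, 0.000671) and the cholesterol hydroxylase Ch25h at 3.24 and 54.2 CPM (3.93, 0.00212). Lipa, the lysosomal lipase, was lower (-1.77, 0.0024). Of 12 genes of fatty acid activation and uptake 4 were higher, with the transporter Cd36 at 5.78 and 154 CPM (4.39, 0.000397), the binding protein Fabp5 at 32.7 and 163 CPM (2.25, 0.00111) and the lipoprotein lipase Lpl at 53.4 and 273 CPM (2.22, 0.00275), and 1 lower, Acsl5 (-2.07, 0.0155, and -1.21, 0.0129, without DTC 3). Beside these, 8 of 12 macrophage and monocyte markers were called higher in DTC and 0 lower, with a median of 4.08, 9 of 9 endothelial and 7 of 10 alveolar type 2 and club cell markers were higher, and 2 of 3 adipocyte markers were, at sums of 28.2 to 79.0 CPM in DTC. In mCherryHigh minus mCherryLow the filter passed 6 of 12 macrophage, 6 of 9 endothelial, 5 of 10 alveolar and 1 of 3 adipocyte markers. Any further markers tested here needed DTC libraries to enter, which favours a call as higher. The part of these other cells in the increases was not tested.

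Of 10 genes of glycerolipid synthesis, 1 was called higher (Lpin1, 2.03, limma adjusted p = 0.00802) and 1 lower (Plin3, -1.49, 0.00813). Dgat2, which makes triglyceride, did not overlap between mCherryHigh, at a mean of 53.6 CPM, and mCherryLow, at 14.5 CPM, a difference of 1.87 (SE 0.44) that did not pass (limma adjusted p = 0.444), and it was lower in DTC than in mCherryHigh (-3.02, limma adjusted p = 0.00506).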

How the data were processed

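Full-length cDNA libraries were made with a SMART-seq kit and Nextera XT, per the labels' protocols, and reads were mapped to mm9, per the submitters' processing notes. No aligner or counter is named (not given in the sources used here). CPM values as deposited were scaled by the authors to a common library total. All were whole multiples of 1 read within 0.01 read (100% of values), so whole reads and totals were recovered.

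The main test was a two-sided limma fit (version 3.58.1, R 4.3.3) of log2(CPM + 1) with a trended variance and group as the only term. A gene entered when 3 or more of the 6 libraries compared reached 1 CPM. Benjamini-Hochberg adjustment ran over all genes tested, with a threshold of 0.05. All 27 members passed the filter in each comparison. Tests of whole reads (edgeR 4.0.16, DESeq2 1.42.0), thinning to the shallowest library and the code series as a term were added after the data were seen. Values per library are given for members called by limma or edgeR in any comparison, for Fasn, Sqle, Insig1, Srebf1 and Srebf2, and otherwise for those with the smallest p up to 4 a branch. Nsdhl was added after its values were seen. In other lists up to 4 genes were named by smallest p, and 2 that this rule takes are not reported here. The members and lists were chosen with earlier results of these data known. Transcript windows of 50 bases came from a GENCODE annotation and promoters from RefSeq, both of GRCm38, a later build than mm9. The procedure was tested on simulated data.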

Additional observations from a re-analysis of the deposited data

How the results depend on the processing

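With 3 libraries a group, small changes can be missed. For DTC minus mCherryLow the simulated test found 2, 21, 40 and 47 of 50 genes changed 2-, 4-, 8- and 16-fold, and for DTC minus mCherryHigh 4, 20, 36 and 48. Low members such as Idi1 rest on few reads. The changed genes of the simulation were all drawn from higher mean levels than that of Idi1, so these counts do not cover it. Whether the shared label numbers mark paired libraries cannot be settled here. Same-numbered mCherryLow and mCherryHigh libraries had correlations of deviations of -0.20, -0.02 and 0.27, but differences in depth and code series also enter these values. The replicate block called 0 members, as did the fit without it and all other settings in that comparison. No paired analysis was possible with DTC because it shares fewer than 2 numbers with the other groups.

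The count of members called in DTC minus mCherryLow was 4 and became 2 with no filter, with a filter at 5 CPM and after thinning, and ran from 1 to 6 when each library was left out. In DTC minus mCherryHigh it was 3 and became 5 in 1 fit of all 9 libraries, by edgeR and by DESeq2. The sterol median by edgeR was -0.52 in DTC minus mCherryLow and -0.33 in DTC minus mCherryHigh, and the fatty acid median was -0.70 with quantile normalization in the first and -1.02 by edgeR in the second. Leaving out each library, the fatty acid median ran from 0.13 to 0.68 in mCherryHigh minus mCherryLow and from -0.46 to 0.35 in DTC minus mCherryLow. Fasn ran from -0.043 to 0.34 in mCherryHigh minus mCherryLow and from -1.60 (limma adjusted p = 0.0493, without DTC 2) to -0.49 in DTC minus mCherryHigh, and was -1.30 with median-of-ratios scaling in DTC minus mCherryLow. For all of these the cause was not tested.

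Signs turned for members near 0. In mCherryHigh minus mCherryLow, Idi1 was 0.072 with the code series and 0.23 after thinning. Insig1 was 0.057 with the code series, 0.16 by edgeR and 0.13 by DESeq2. Srebf1 was 0.00036 with quantile normalization, 0.73 with the code series and 0.17 after thinning. Leaving out each library gave -0.46 to 0.42 for Idi1, -0.78 to 0.54 for Insig1, -0.51 to 0.76 for Srebf1 and -0.077 to 0.68 for Acly. In DTC minus mCherryLow, Acaca was -0.86 with quantile normalization, -0.050 with median-of-ratios scaling, -0.22 by edgeR, -0.066 by DESeq2 and -0.28 after thinning, and leaving out each library gave -1.01 to 0.16 for Sqle and -0.42 to 0.34 for Insig1. In DTC minus mCherryHigh, Insig1 was -0.50, -0.12, -0.88 and -0.63 with quantile normalization, median-of-ratios scaling, edgeR and DESeq2, and ran from -0.57 to 0.76 when each library was left out.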
